A study of Mus musculus with 4 samples.

Results

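The FUBP1 family and the MYC network were followed through RNA-seq read counts of stimulated mouse T cells with and without PTC, as 10 genes: Fubp1, Fubp3 and Khsrp of the FUBP family, and Myc, Mycn, Max, Mxd1, Mxd3, Mxd4 and Mxi1 of the MYC network. They were picked by symbol from the 54532 genes of the table, and each symbol matched a single gene. The set was proposed after results of this comparison were known, the rise of Fubp1 among them, so the members' differences between PTC and Control are given as a description. Adjusted p-values come from a fit over all genes tested, serve to say which genes were called, and support nothing further about the choice of the set.

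The cells were primary T cells kept in medium with serum, antibiotics, IL2, the growth cytokine of T cells, and beads that engage CD3 and CD28, the receptor complex and its co-receptor. All 4 libraries shared this culture and were labelled 12 h. The Control group (n = 2) had no PTC and the PTC group (n = 2) received it. The sources used here do not give the strain, age or sex of the mice, the dose of PTC or the meaning of that abbreviation. Nor do they say whether replicates came from separate cultures or animals, so p-values measure only how these libraries vary, and that spread may be technical.

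FUBP1 binds the far upstream element, a stretch of DNA before the Myc promoter that opens into single strands when the gene is transcribed, and stimulates transcription from there. It binds DNA and RNA through KH domains, which FUBP3 and KHSRP also carry. MYC is a transcription factor that is induced by T cell receptor stimulation and drives growth and metabolism of dividing T cells. It pairs with MAX to bind the E-box CACGTG. The MXD proteins and MXI1 pair with MAX as well, occupy the same sites and recruit repressors.

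Library totals ran from 15458818 to 16639911 counts, and 13884 genes passed the filter on low counts, all 10 members among them. Levels are CPM, read counts set to a common library size after scaling by trimmed mean of M values (TMM). The limit that 3 counts set lay between 0.184 and 0.195 CPM and covers counting error only. All 10 T cell markers were detected, with sums of 3800 and 3688 CPM in Control and 3991 and 4099 CPM in PTC. Their fold changes were all positive, against 6848 of 13884 over all genes tested. Of the 10, 6 were higher without overlap between groups, against 21.3% of all genes tested. By edgeR 0 were called, against 1.35%, and by DESeq2 0, against 1.93%. At an edgeR unadjusted p under 0.05 there were 4, against 12.9%. Cd3e was at 353 and 359 CPM in Control and 398 and 412 CPM in PTC. In bulk RNA, fewer cells of a type and less RNA per cell cannot be told apart.

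Fubp1 was about 2-fold higher with PTC, while the transcripts of its paralogs, of Myc and of the MYC partners did not pass the test. Of the 10 members 1 was called, Fubp1, against 1.35% of all genes tested (188 of 13884). Calls rest on edgeR's quasi-likelihood test, with the Benjamini-Hochberg adjusted p below 0.05. Higher calls made up 0.591% of the genes tested (82) and lower calls 0.763% (106), and with library totals alone as the scale 71 were higher and 205 lower. DESeq2 called 1.93% of 10654 genes and limma-voom 1.41%. The 188 calls became 369 without Control 1, 289 without Control 2 and 73 without PTC 1, and Fubp1 was among them each time. Since the set was formed with this comparison known, nothing is read from the count. The other 9 members had log2 fold changes of at most 0.25 in size.

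**Figure D1:**
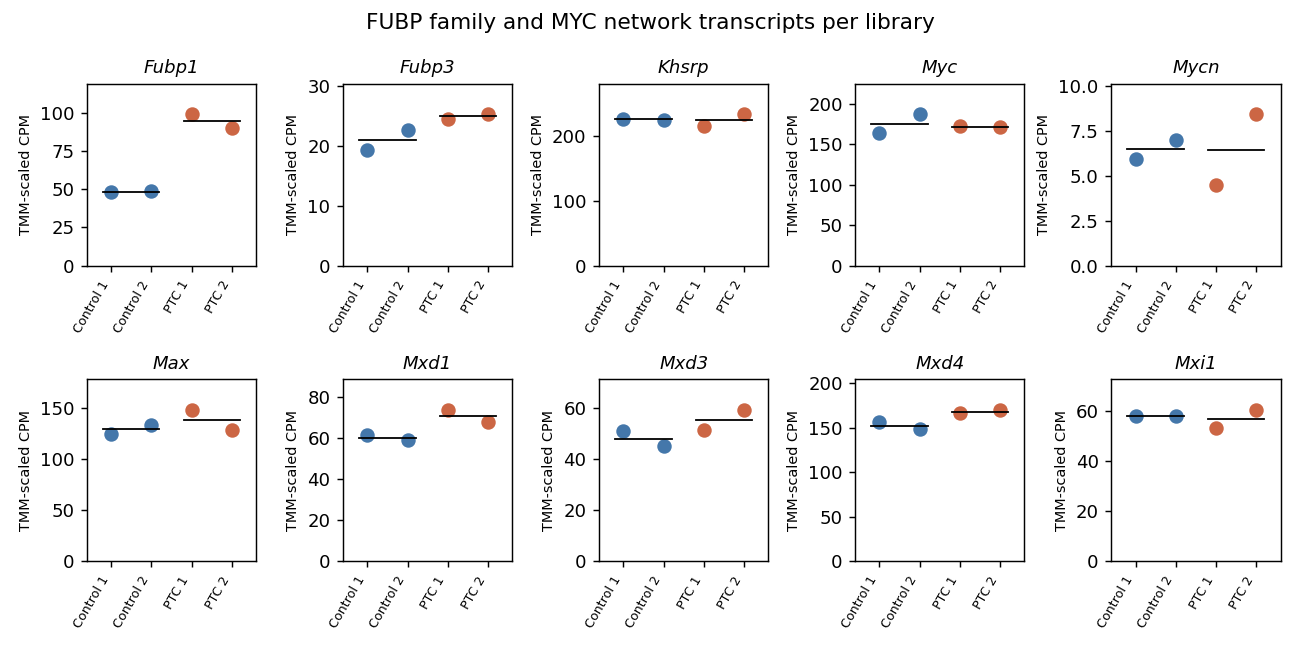
TMM-scaled CPM (vertical axes, from 0) of each member in each of the 4 libraries, Control in blue and PTC in orange, with a line at each group mean of n = 2. Fubp1 goes from 47.8 and 48.6 CPM in Control to 99.1 and 90.1 CPM in PTC, whereas Khsrp, Myc, Mycn, Max and Mxi1 have overlapping groups.

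Fubp1 (ENSMUSG00000028034; chromosome 3, 152210422 to 152236826, plus strand, GRCm38) had 749 and 774 counts in the Control libraries and 1523 and 1468 in the PTC libraries. Its level was 47.8 and 48.6 CPM in Control and 99.1 and 90.1 CPM in PTC cells, or 48.2 ± 0.564 against 94.6 ± 6.37 CPM (SD, n = 2 each). The groups lay far apart, and the gap between replicates was 0.02 on the log2 scale in Control and 0.14 in PTC. The log2 fold change was 0.97 (SE 0.09), a 1.96-fold difference with a 95% interval from 1.73 to 2.22 (edgeR adjusted p = 4.63e-06). By fold change it stood in place 5 among the 82 genes called higher, and by p-value in place 3 among all genes tested. Leaving out each library in turn moved the log2 fold change between 0.90 and 1.04, with an adjusted p of at most 4.20e-05 by edgeR.

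Counts of Fubp1 add up reads of many transcript forms. The GENCODE M21 annotation lists 20 transcripts of the gene, 11 protein-coding, 3 marked for nonsense-mediated decay, the pathway that destroys messages with an early stop, and 6 with a retained intron. The length deposited for the gene was 15500 bases, against 6523 bases of its longest annotated transcript. Which forms made up the difference cannot be told from gene counts. None of the 50-base words of that longest transcript occurred in a transcript of another annotated gene, so no copy with exact matches of this length was found.

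Fubp1 stands head to head with Dnajb4, a gene for an HSP40-type co-chaperone on the minus strand of chromosome 3 (152178511 to 152210302), whose span ends 120 bases before Fubp1 begins. Dnajb4 had 115 and 106 counts in Control and 102 and 104 in PTC libraries. Its level was 7.35 and 6.66 CPM in Control and 6.64 and 6.38 CPM in PTC, lower with PTC by a margin smaller than the gap between the Control libraries. It did not pass the test (log2 fold change -0.11, SE 0.19, edgeR adjusted p = 0.869). Nexn, which encodes an actin-binding protein of muscle, lies on the minus strand with its span 156 bases past the end of Fubp1. The gene therefore begins at the far end of that span, away from Fubp1. It had 0 counts in both Control libraries and 1 in each PTC library.

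The stretch that begins where Dnajb4 ends is printed because both genes are transcribed away from it, and Fubp1 was called while Dnajb4 was not. It runs on the plus strand at chr3:152210303-152210446 (RefSeq, GRCm38.p6), from 119 bases before the RefSeq start of Fubp1 to 25 bases after it, with a CCAAT box, a promoter element bound by NF-Y, in capitals.
Fubp1: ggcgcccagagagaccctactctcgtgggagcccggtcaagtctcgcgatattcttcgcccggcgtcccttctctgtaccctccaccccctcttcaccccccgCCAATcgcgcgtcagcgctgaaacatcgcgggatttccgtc
The box begins 16 bases before the start. CCAAT on either strand was present in 37.4% of 32851 RefSeq promoter windows of 300 bases (250 before and 50 after a start). CACGTG, the letters bound by MYC with MAX, was absent from the 300-base window of Fubp1 and present in 7.15% of all windows.

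**Figure D2:**
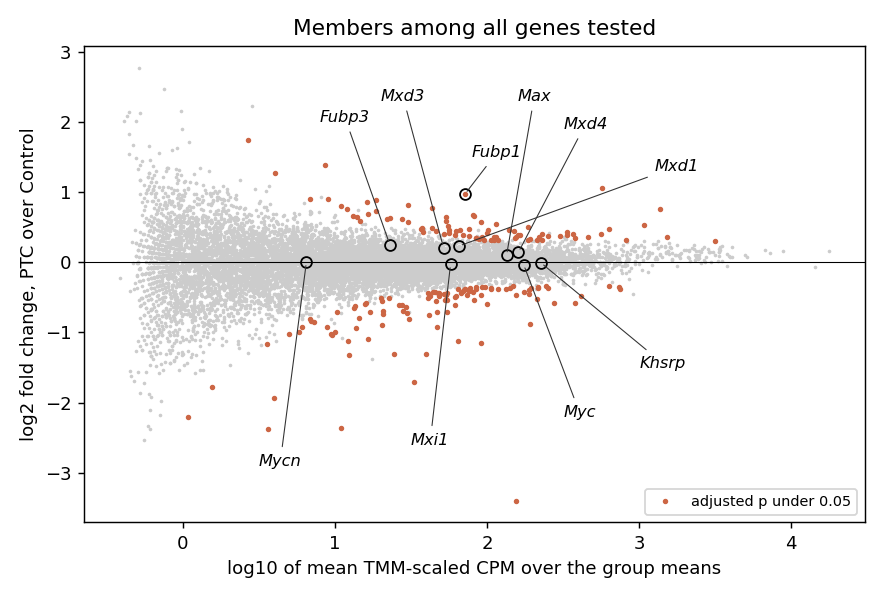
Log2 fold change of PTC over Control (vertical axis) against the log10 of the mean TMM-scaled CPM (horizontal axis) for the 13884 genes tested in grey, with genes at an adjusted p under 0.05 in orange and the 10 members circled. Fubp1 lies at 0.97, away from the other 9 members, which lie between -0.03 and 0.25.

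The paralogs of Fubp1 differed from it in level and in change. Fubp3 (ENSMUSG00000026843, chromosome 2, 31572651 to 31617526, plus strand), whose product binds the same upstream element in human cells, stood at 19.4 and 22.7 CPM in Control and 24.5 and 25.3 CPM in PTC. The PTC libraries lay above both Control libraries, but the gap between the Control libraries, 0.23 on the log2 scale, was nearly as large as the difference. Its log2 fold change was 0.25 (SE 0.12), a fold of 1.19 with a 95% interval from 0.992 to 1.42 (edgeR adjusted p = 0.414). It was 0.14 on the log2 scale without Control 1 and 0.37 without Control 2.

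Khsrp (ENSMUSG00000007670, chromosome 17, 57021051 to 57031522, minus strand) encodes a KH-domain protein of splicing that also speeds the decay of messages with AU-rich elements and aids microRNA maturation. Its 226.9 and 225.4 CPM in Control and 216 and 234.2 CPM in PTC overlapped. In the authors' deposited table its log2 fold change is 0, and its mean raw count was 3569 in both groups. The fitted log2 fold change was -0.01, with a 95% interval of the fold from 0.892 to 1.11 (edgeR adjusted p = 0.983). Of its longest transcript, 2.14% of the 50-base words also occur in other annotated genes.

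Per kilobase of deposited gene length, the FUBP genes differed widely in level. Khsrp stood at 52.4 ± 0.230 CPM per kb in Control cells, Fubp3 at 3.55 ± 0.398 and Fubp1 at 3.11 ± 0.0364 (SD, n = 2). With PTC, Fubp1 stood at 6.10 ± 0.411 and Fubp3 at 4.22 ± 0.0973 CPM per kb, so that the order of this pair turned. On the length of the longest annotated transcript Fubp1 lay above Fubp3 already in Control, at 7.40 against 5.76 CPM per kb. The level of Fubp1 relative to its paralogs therefore depends on the length taken. Its change cannot depend on it here, because the same length per gene divides the counts of every library.

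The ratio of Fubp1 to Fubp3 levels per kb was 0.943 and 0.818 in the Control libraries and 1.54 and 1.36 in the PTC libraries. That of Fubp1 to Khsrp was 0.0588 and 0.0601 in Control, and 0.128 and 0.107 in PTC. For Fubp1 to Myc it was 0.0511 and 0.0455, against 0.101 and 0.0920. In each of these 3 ratios the groups did not overlap. An exact two-sided permutation test over 4 samples cannot go below p = 0.333, which each of these 3 ratios reached (adjusted p = 0.667 over 6 ratios), so the test cannot call a difference here. On the log2 scale the changes were 0.72, 0.98 and 1.00.

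**Figure D3:**
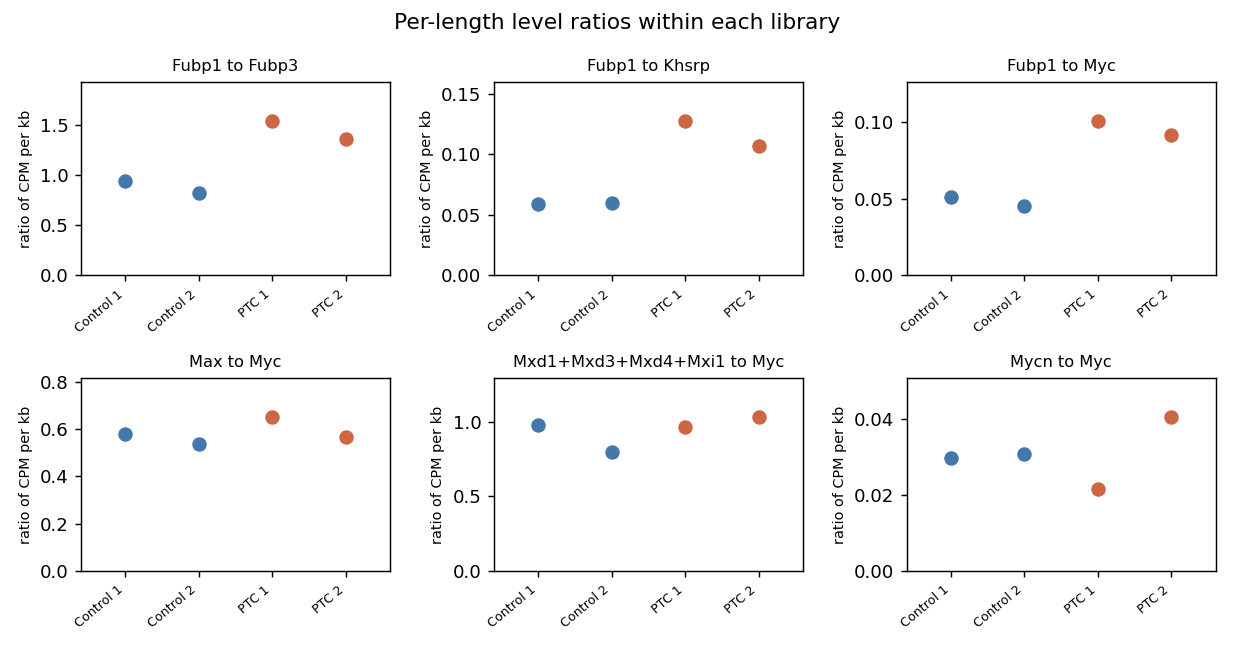
Ratios of CPM per kb of deposited gene length within each library (vertical axes, from 0), Control in blue and PTC in orange. The 3 ratios with Fubp1 on top do not overlap between groups, while those of Max, of the summed MXD genes and of Mycn to Myc do.

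Myc (ENSMUSG00000022346, chromosome 15, 61985391 to 61990374, plus strand), the gene at whose upstream element FUBP1 acts, had 2567 and 2985 counts in Control and 2646 and 2798 in PTC libraries. Its level was 164 and 187.6 CPM in Control and 172.1 and 171.7 CPM in PTC, with both PTC libraries between the Control libraries. The log2 fold change was -0.03 (SE 0.08.) The 95% interval of the fold ran from 0.871 to 1.10, so a change of Myc as large as that of Fubp1 lies outside it (edgeR adjusted p = 0.914). The direction itself was not settled, since the log2 fold change was 0.07 without Control 2 and -0.12 without Control 1. Mature Myc transcripts at a single time were counted, and transcription and MYC protein were not measured.

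Mycn (ENSMUSG00000037169, chromosome 12, 12936093 to 12941914, minus strand), the paralog of Myc that is used mostly in embryonic tissue, was low. It stood at 5.94 and 7.04 CPM in Control and 4.49 and 8.47 CPM in PTC, where the replicates were 0.92 apart on the log2 scale. The 95% interval of its fold, from 0.702 to 1.43, was the widest of the 10 members. Per kb it reached 0.0299 and 0.0309 of the level of Myc in Control, and 0.0215 and 0.0407 in PTC.

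Max (ENSMUSG00000059436, chromosome 12, 76937269 to 76962201, minus strand), the shared partner of MYC and the MXD proteins, stood at 125.3 and 133.7 CPM in Control and 148.8 and 128.9 CPM in PTC. The groups overlapped. Its log2 fold change was 0.10 (SE 0.08, edgeR adjusted p = 0.668), and -0.01 without PTC 1. Gm47218, a predicted gene, lies wholly within Max on the same strand and had 7 to 11 counts. Per kb, Max stood at 0.577 and 0.538 of the level of Myc in Control, and at 0.653 and 0.567 in PTC.

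None of Mxd1, Mxd3, Mxd4 and Mxi1, the members that encode repressive partners of MAX, was called. Mxd1 (chromosome 6, 86647042 to 86669161, minus strand), a partner tied to differentiation and exit from the cell cycle, stood at 61.4 and 58.8 CPM in Control and 73.6 and 67.5 CPM in PTC. The groups did not overlap, with a log2 fold change of 0.23 (SE 0.09, edgeR adjusted p = 0.232). Besides Fubp1 it was the one member at an unadjusted p under 0.05 (edgeR unadjusted p = 0.0143), a level that 12.9% of all genes tested reached.

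Mxd3 (chromosome 13, 55325168 to 55329823, minus strand), the family member linked to dividing cells, stood at 50.9 and 45.0 CPM in Control and 51.5 and 59.3 CPM in PTC. Its groups were separate by a narrow margin, with a log2 fold change of 0.21 (SE 0.10, edgeR adjusted p = 0.390). It was 0.10 without PTC 2, 0.13 without Control 2 and 0.31 without either Control 1 or PTC 1. It overlaps 105 bases of Prelid1 on the other strand, a mitochondrial lipid transfer gene with 10529 to 12494 counts. The strand setting of the counting is not given in the sources used here, so reads of this overlap are uncertain.

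Mxd4 (chromosome 5, 34173883 to 34187720, minus strand) stood at 156.5 and 148.8 CPM in Control and 166.2 and 170.4 CPM in PTC, also without overlap (log2 fold change 0.14, standard error 0.07, edgeR adjusted p = 0.445). Mxi1 (chromosome 19, 53310506 to 53375810, plus strand, with another span in GENCODE M21) stood at 58.2 and 57.9 CPM in Control and 53.3 and 60.6 CPM in PTC. Its groups overlapped at a log2 fold change of -0.03. In all, 5 of the 10 members had PTC libraries above both Control libraries and 0 had them below, against 21.3% and 22.2% of all genes tested (43.6% in either direction). Fubp1, Fubp3, Mxd1, Mxd3 and Mxd4 were those 5.

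**Figure D4:**
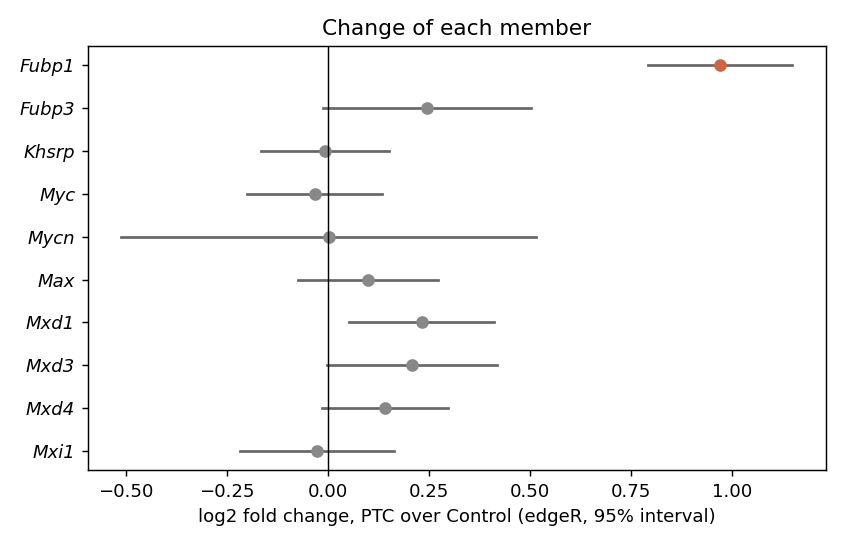
Log2 fold change of PTC over Control for each member (points) with its 95% interval from edgeR's quasi-likelihood fit (lines, n = 2 per group), in orange where the adjusted p was under 0.05. The interval of Fubp1 runs from 0.79 to 1.15 and that of Myc from -0.20 to 0.13.

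Per kb of deposited length, the order of the members in Control was Myc (64.7 ± 6.15 CPM per kb, SD, n = 2), Khsrp, Max (36.0 ± 1.65), Mxd3 (20.2 ± 1.77), Mxd4 (17.99 ± 0.646), Mxi1 (10.3 ± 0.0393), Mxd1 (8.50 ± 0.263), Fubp3, Fubp1 and Mycn (1.97 ± 0.236). No neighbours in this order overlapped between the Control libraries. In PTC cells Mxi1 and Mxd1 overlapped and Fubp1 stood above Fubp3. On the longest annotated transcript, Max (66.7 CPM per kb) came before Khsrp (56.9), Mxd4 (33.0) before Mxd3 (27.5), Mxd1 (12.9) before Mxi1 (11.5) and Fubp1 before Fubp3. The summed level of Mxd1, Mxd3, Mxd4 and Mxi1 was 0.977 and 0.799 of that of Myc in Control and 0.966 and 1.04 in PTC. Those groups overlapped.

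RefSeq promoter windows were found for 9 of the 10 members, Myc being the exception. CACGTG was present in the windows of 3 of these 9 genes, Fubp3, Max and Mxd4. They are shown because the E-box is the site at which MYC and the MXD proteins compete through MAX. Each is printed from 250 bases before the RefSeq start to 25 bases after it (GRCm38.p6), with CACGTG and CCAAT on either strand in capitals; the windows lie at chr2:31572401-31572675 on the plus strand, chr12:76962224-76962498 on the minus strand and chr5:34187686-34187960 on the minus strand.
Fubp3: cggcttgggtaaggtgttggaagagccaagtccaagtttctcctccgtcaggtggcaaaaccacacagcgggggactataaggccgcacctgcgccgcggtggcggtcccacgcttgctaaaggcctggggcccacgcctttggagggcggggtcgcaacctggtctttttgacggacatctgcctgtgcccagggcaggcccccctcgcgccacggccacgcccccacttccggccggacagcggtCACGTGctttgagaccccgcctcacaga
Max: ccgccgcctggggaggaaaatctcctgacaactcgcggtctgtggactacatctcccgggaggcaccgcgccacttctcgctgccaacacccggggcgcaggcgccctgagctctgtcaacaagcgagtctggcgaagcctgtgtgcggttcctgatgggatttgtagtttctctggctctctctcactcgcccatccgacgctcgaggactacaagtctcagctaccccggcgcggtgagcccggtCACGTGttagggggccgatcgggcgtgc
Mxd4: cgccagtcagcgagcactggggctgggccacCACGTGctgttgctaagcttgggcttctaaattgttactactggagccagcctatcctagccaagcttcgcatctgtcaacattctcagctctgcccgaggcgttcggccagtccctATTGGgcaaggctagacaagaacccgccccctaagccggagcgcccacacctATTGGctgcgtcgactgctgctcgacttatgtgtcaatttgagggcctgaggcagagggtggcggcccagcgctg
The E-box began 3 bases before the RefSeq start in Fubp3 and in Max, and 219 bases before it in Mxd4. The RefSeq start of Max lies 47 bases outside the deposited span of the gene, so the place given for its E-box holds for the RefSeq start alone. The log2 fold changes of these 3 genes were 0.25, 0.10 and 0.14, and none was called. A match of letters shows no binding.

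FUBP1 partners and other factors at the Myc upstream region had 0 calls among 7 by edgeR. By DESeq2 0 were called, and 1 was at an unadjusted p under 0.05. Their median log2 fold change was 0.06, against -0.003 over all genes tested. Beside this and the later list counts stand the shares over all genes tested. By edgeR 1.35% were called, by DESeq2 1.93% of 10654, and 12.9% had an edgeR unadjusted p under 0.05. Puf60, which encodes the repressor FIR that counters FUBP1, stood at 206.6 and 198.8 CPM in Control and 222.5 and 227 CPM in PTC. Its log2 fold change was 0.15 (edgeR adjusted p = 0.405). Hnrnpk, which encodes a KH-domain activator of Myc, had a log2 fold change of 0.20 (edgeR adjusted p = 0.279) and shares 37.8% of its 50-base words with copies, so its counts are uncertain. Without Control 2 it was called at 0.30 (edgeR adjusted p = 0.0357), and without Control 1 it stood at 0.12. Among 8 genes reported to respond to FUBP1 in human cells, 7 were tested and 0 were called (1 by DESeq2, with no DESeq2 adjusted p for 2, and 3 unadjusted). Usp29, a deubiquitinase gene, had 0 counts in every library.

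Of these, Ccnd2, which encodes cyclin D2 and is also a MYC target, stood at 224.6 and 238.7 CPM in Control and 295.7 and 275.5 CPM in PTC. Its log2 fold change of 0.30 missed the threshold by edgeR (adjusted p = 0.058) and passed it by DESeq2 (adjusted p = 0.013) and limma-voom (adjusted p = 0.039). Tnf had a log2 fold change of 0.33 (edgeR adjusted p = 0.219). Cdkn2b, the gene of the cell cycle inhibitor p15, was near the limit of counting at 1.34 and 1.95 CPM in Control and 0.651 and 0.675 CPM in PTC (edgeR log2 fold change -1.30, adjusted p = 0.205).

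Of 22 MYC-activated nucleolar and growth genes tested, 0 were called by edgeR (2 by DESeq2, 6 unadjusted), 15 had a positive fold change (6848 of 13884 over all genes tested) and the median log2 fold change was 0.03. Without overlap between groups, 9 of the 22 were higher and 5 lower, against 21.3% and 22.2% of all genes tested. The 2 DESeq2 calls were Ccnd2 and Ptma. Ptma stood at 1136 and 1121 CPM in Control and 1331 and 1374 CPM in PTC. Its log2 fold change was 0.26 (adjusted p = 0.082 by edgeR and 0.0057 by DESeq2). Ncl, which encodes nucleolin, stood at 319.6 and 356.2 CPM in Control and 347.2 and 342.9 CPM in PTC, and the groups overlapped. Tert, the telomerase gene, had a log2 fold change of -0.31 (SE 0.22, edgeR adjusted p = 0.595).

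Of 13 MYC-activated metabolic genes, 1 rose and 2 fell by edgeR, against 1.35% called over all genes tested, with a median log2 fold change of 0.05 and 8 positive. DESeq2 called 4, against 1.93% of the genes it tested. At an edgeR unadjusted p under 0.05 there were 7, against 12.9% of all genes tested. The further DESeq2 call was Slc3a2, the partner chain of SLC7A5, at a log2 fold change of -0.31 by edgeR (adjusted p = 0.0511 by edgeR and 0.0048 by DESeq2). Tfrc, the transferrin receptor gene for iron uptake, was at 61.0 and 67.3 CPM in Control and at 92.4 and 85.3 CPM in PTC, a rise of 1.39-fold (edgeR adjusted p = 0.0076). Slc7a5, the leucine transporter gene, fell from 816 and 837 CPM to 633 and 657 CPM (edgeR adjusted p = 0.018). Shmt2, a mitochondrial serine hydroxymethyltransferase gene, fell from 869 and 829.8 CPM to 614 and 689 CPM (edgeR adjusted p = 0.018). All 3 calls were lost when PTC 1 was left out (edgeR adjusted p = 0.128, 0.468 and 0.587 in that order), and Slc7a5 also lost its call without PTC 2 (adjusted p = 0.162). Slc7a5 and Shmt2 are targets of ATF4 as well as of MYC, and neither link was tested here. Ldha, the lactate dehydrogenase gene, was at a log2 fold change of 0.22 and Odc1, the ornithine decarboxylase gene, at 0.20, and neither was called (edgeR adjusted p = 0.173 and 0.255).

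Of 6 MYC-repressed genes 0 were called by edgeR (0 by DESeq2, with no DESeq2 adjusted p for 1, and 3 unadjusted), with a median log2 fold change of 0.08. Cdkn1b, the p27 gene, was at 0.23 (edgeR adjusted p = 0.177), and Gadd45a, a growth arrest gene, at -0.61 from about 5 CPM (edgeR adjusted p = 0.279). Of the MYC partner network beyond the members, 4 of 6 genes were tested and 0 were called (0 by DESeq2, 1 unadjusted). Mnt, which encodes another repressive partner of MAX, stood at 79.2 and 81.3 CPM in Control and at 64.8 and 74.9 CPM in PTC (log2 fold change -0.20, edgeR adjusted p = 0.334), so that its groups did not overlap, and it was at -0.10 without PTC 1 and -0.31 without PTC 2. Mga was at -0.08 (edgeR adjusted p = 0.816). Of 17 MYC cofactors at chromatin 0 were called (0 by DESeq2, 5 unadjusted). Trrap, a scaffold of histone acetyltransferase complexes, had the largest difference in this list at -0.27 (edgeR adjusted p = 0.143). It was at -0.38 without Control 1, -0.14 without Control 2, -0.24 without PTC 1 and -0.30 without PTC 2.

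**Figure D5:**
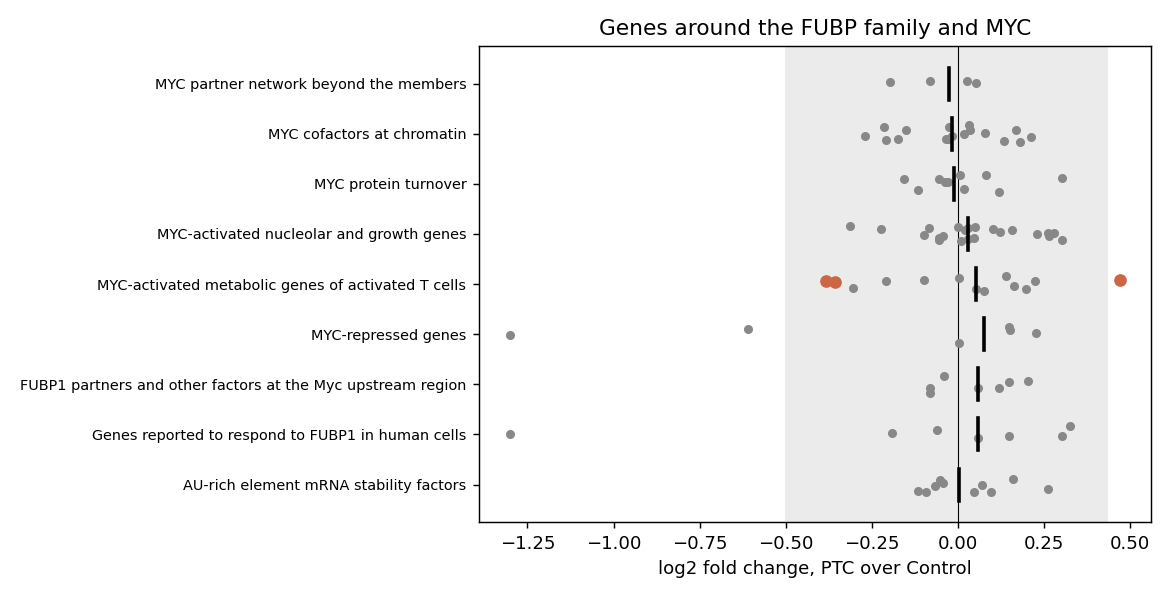
Log2 fold change of PTC over Control (horizontal axis) of the tested genes of 9 lists around the FUBP family and MYC, with a bar at each median, genes at an adjusted p under 0.05 in orange and the others in grey. The grey band holds the central 90% of all genes tested, from -0.50 to 0.43, and the 9 medians lie between -0.03 and 0.08.

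The 5 expressed genes whose profile over the 4 libraries was nearest to that of Fubp1 were Lif, Igkv14-126, Pla2g7, Arg1 and S100a8. Likeness was the Euclidean distance between log2 CPM centred on each gene's mean, over 9245 candidate genes whose mean count reached 100. Genes with predicted, clone-based or pseudogene symbols were left out of the candidates. Lif, an IL6-family cytokine gene, was nearest at a distance of 0.17, with 21.0 and 22.4 CPM in Control and 40.1 and 36.4 CPM in PTC. S100a8, a neutrophil and monocyte gene, lay at 0.30, with 12.8 and 12.3 CPM in Control and 21.3 and 19.3 CPM in PTC. Except for Lif, these genes lost their calls when PTC 1 was left out (edgeR adjusted p = 0.129 for Igkv14-126, 0.199 for Pla2g7, 0.0931 for Arg1 and 0.152 for S100a8). Igkv14-126 also lost its call without Control 1 (edgeR adjusted p = 0.0772) and with DESeq2 on all libraries (adjusted p = 0.0589). With 4 libraries in 2 groups, such likeness holds little beyond the difference between the groups.

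Some markers of other cells also differed between the groups. The 11 myeloid markers summed to 1081 and 1088 CPM in Control and 1523 and 1344 CPM in PTC, with 5 of 11 called against 1.35% of all genes tested. Lyz2 (865 and 887 CPM in Control, 1358 and 1176 CPM in PTC) rose and made up most of each sum, so the sums follow this gene. Of the 11 markers, 6 had a positive fold change and 5 a negative one. The calls were 2 higher and 3 lower. S100a8 was the other higher call. Mpo fell from 50.6 ± 4.39 to 15.4 ± 5.66 CPM, Elane from 18.4 ± 1.91 to 3.55 ± 2.26 CPM and Cd14 from 18.2 ± 3.21 to 10.5 ± 0.166 CPM (SD, n = 2; edgeR adjusted p = 8.94e-06, 4.02e-05 and 0.0129). The 10 B cell markers summed to 532 and 524 CPM in Control and 559 and 570 CPM in PTC. Ighm made up most of each sum, at 481 and 471 CPM in Control and 474 and 500 CPM in PTC. Its groups overlapped. Of the 8 B cell markers tested 1 was called, Igkc, which was higher, against 1.35% of all genes tested. Of the B cell markers Cr2 was at 0 in both Control libraries and in PTC 2, and at 0.195 CPM in PTC 1. The 6 NK cell markers summed to 78.5 and 77.2 CPM in Control and 109.5 and 98.7 CPM in PTC. Eomes, which T cells also express, stood at 41.5 and 44.4 CPM in Control and 69.3 and 59.7 CPM in PTC. With Gzma, at 34.2 and 29.3 CPM in Control and 37.3 and 35.3 CPM in PTC, it made up most of each sum. Of the 4 NK cell markers tested 1 was called, Eomes, which was higher, against 1.35% of all genes tested. Of the NK markers Ncr1 stood at 0.314 to 0.520 CPM. The part of such cells in the difference of Fubp1 was not tested.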

How the data were processed

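RNA-seq counts of 4 libraries (Control and PTC, n = 2 each) were analysed. The authors deposited whole-number read counts per gene with gene length, and the submitters' processing notes name featureCounts 1.5.0-p3, HISAT2 2.0.5 and CASAVA 1.8. The sources used here do not give the genome build, strand setting or treatment of multiply aligned reads. As 98.3% of the gene IDs found in GENCODE M21 had the same position there, coordinates are given on GRCm38. The authors' deposited log2 fold change is quoted for Khsrp alone. A further 2 count columns match no sample and were not used.

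Groups come from the treatment label, and replicate numbers from the titles. Genes passing filterByExpr (13884) were scaled by TMM and compared with edgeR 4.0.16 (quasi-likelihood, group alone, R 4.3.3) with Benjamini-Hochberg adjustment. The standard error is the log2 fold change over the root of the F statistic. The common dispersion gives a coefficient of variation of 6.97%. On simulated counts for the 13884 genes of this comparison, calls were made for 24% of genes changed 1.3-fold, for 62% at 1.5-fold, for 86% at 2-fold and for 98% at 4-fold (50 genes each), and for 5 unchanged genes. DESeq2 1.42.0, limma 3.58.1 (voom), other scalings, filters, gene lengths, the replicate block and leaving out each library were alternatives.

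Members, lists and markers were chosen with earlier results of these data known. The text names the members, and of each list all called genes and the 2 with the largest differences. It also names the 5 genes most like Fubp1, and genes that overlap a member or flank Fubp1. Ncl, Ptma, Slc3a2, Ldha, Odc1, Cdkn1b, Usp29 and the marker genes named were chosen after their values were seen. Fbxw7 is named outside the rule too. A few genes that this rule names are not reported here.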

Additional observations from a re-analysis of the deposited data

How the results depend on the processing

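Fubp1 was the one member called in the main analysis and in each of 12 alternatives, with log2 fold changes from 0.90 to 1.04. The count of called genes was 188, 432 without a filter on low counts, and 73 to 369 with a library left out. Higher calls numbered 82, 200 without the filter and 24 to 238 with a library left out; lower calls numbered 106, 232 without the filter, 205 with library totals alone and 49 to 171 with a library left out. The self-test made calls at this sample size, and the cause of these shifts was not tested. Members near 0 changed sign, and so did Mga of the MYC partner network beyond the members. With a library left out, Khsrp ran from -0.066 to 0.051, Myc from -0.12 to 0.071, Mycn from -0.53 to 0.38, Max from -0.0073 to 0.20, Mxi1 from -0.12 to 0.061 and Mga from -0.17 to 0.023. Khsrp was at 0.0084 with upper-quartile scaling. Mycn was at -0.041 with library totals alone, -0.057 by limma-voom and -0.036 with the replicate block. With the longest annotated transcript as length, Control ratios became 1.29 (Fubp1 to Fubp3), 0.130 (Fubp1 to Khsrp), 0.0988 (Fubp1 to Myc), 0.889 (Max to Myc), 1.14 (summed MXD genes and Mxi1 to Myc) and 0.0322 (Mycn to Myc). The log2 change of the Mycn to Myc ratio ran from -0.50 to 0.42 with a library left out. Same-numbered libraries did not deviate together (correlation of deviations across genes -0.06), so numbers were not taken as pairs. The replicate block called 237 genes, 177 of them among the 188, and Fubp1 alone among the members.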

Other observations

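Genes of the life span of Myc messages and of MYC protein were tested as well. Of 10 factors listed for the stability of AU-rich messages, the class to which Myc belongs, 0 were called by edgeR and 0 by DESeq2. DESeq2 gave no adjusted p for 1, and 1 was at an unadjusted p under 0.05. The median log2 fold change was 0.00. Zfp36, which encodes the decay factor tristetraprolin, stood at 78.7 and 80.5 CPM in Control and 94.4 and 96.2 CPM in PTC, without overlap (log2 fold change 0.26, edgeR adjusted p = 0.115). Zfp36l1, a paralog, was at 0.16 (edgeR adjusted p = 0.471) and shares 56.9% of its 50-base words with annotated copies. It was at 0.055 without PTC 1, 0.10 without Control 1 and 0.26 without PTC 2.

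Of 10 genes of MYC protein turnover 0 were called (0 by DESeq2, 0 unadjusted), with a median log2 fold change of -0.01. Skp2, a ubiquitin ligase subunit gene, stood at 8.24 and 10.9 CPM in Control and 11.1 and 12.5 CPM in PTC (log2 fold change 0.30, standard error 0.17, edgeR adjusted p = 0.488). It moved to 0.12 without Control 1 and 0.52 without Control 2. Fbxw7, which encodes the main ligase subunit for MYC, stood at 11.1 and 13.9 CPM in Control and 12.0 and 13.3 CPM in PTC, and the groups overlapped.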
